A study of Oryza sativa with 36 samples.

Results

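The salt response of shoots of IR64, a rice variety described by the study as moderately sensitive to salt, was examined in 3 arrays of seedlings grown with 140 mM NaCl and 3 arrays of control seedlings without added salt, which are 6 of the 36 arrays of the series. The arrays were chosen by their titles, which name IR64, the leaf and either salinity stress or the control. All 57258 probe sets that are not array controls were tested. The series also holds IR64 roots and the shoots and roots of PL177, a salt-tolerant pyramiding line bred from 2 introgression lines in the IR64 background, under salt, salt+ABA and the control. Seedlings of all groups were at the 3-leaf stage and were raised in the same nutrient solution, and salt+ABA seedlings had 10 µM ABA beside the 140 mM NaCl. The labels call the shoot samples leaf and give 4 d for the treated samples, whereas the study's methods describe a longer treatment. The 3 arrays of a group are described as independent biological replicates.

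Salt in the root medium lowers the water potential that roots can draw on and loads the leaf with sodium and chloride. Plants answer the first part largely through abscisic acid (ABA), which is made and broken down in the leaf and acts through receptors, protein phosphatases 2C and SnRK2 kinases on genes of the ABA regulon. Late embryogenesis abundant (LEA) proteins and dehydrins are hydrophilic proteins that accumulate in drying seeds and in stressed leaves and serve as the usual markers of this response. Jasmonate, in contrast, is a hormone of wounding and defence, made from plastid lipids by lipoxygenases and allene oxide synthases.

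Intensities are given as deposited by the authors and then quantile normalized over the 18 shoot arrays. A DEG is a probe set that changed by more than 2-fold on the log2(intensity + 32) scale with a Benjamini-Hochberg adjusted p below 0.05 from limma. In IR64 shoots 1347 probe sets were DEGs, 2.35% of those tested. Of these, 554 (0.968%) were up-regulated and 793 (1.38%) were down-regulated by salt. The increases reached further than the decreases, since 24 up-regulated and 3 down-regulated probe sets changed by more than 16-fold, although 150 and 166 changed by more than 4-fold. The 3 salt arrays lay wholly above the 3 control arrays for 549 of the up-regulated DEGs, and wholly below them for 717 of the down-regulated DEGs. Among all probe sets, 11.1% lay above and 9.4% lay below in this way. The count of DEGs was 678 when only these 6 arrays were fitted, 863 with a value 4 times as large added before log2, 40 by the methods' t-test after Benjamini-Hochberg adjustment and 2034 without control replicate 2. Control replicate 2 was the lowest of the control arrays for 545 of the 793 down-regulated DEGs, and salt replicate 2 the lowest of the salt arrays for 562 of them. In whole shoots, fewer cells of a type and less RNA per cell cannot be told apart.

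**Figure D1:**
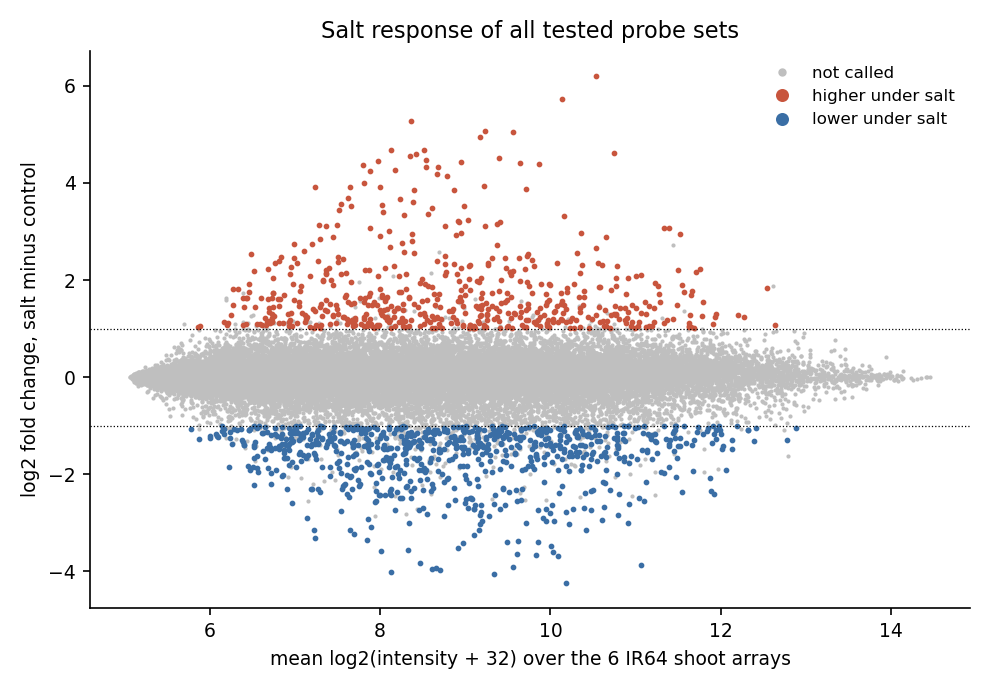
Log2 fold change, salt minus control, of each tested probe set in IR64 shoots against its mean log2(intensity + 32) over the 6 arrays. The 554 up-regulated and 793 down-regulated DEGs are coloured, dotted lines mark 2-fold, and the increases extend to a log2 fold change of 6.20, against -4.23 for the decreases.

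The arrays matched their leaf label. The summed intensity of 7 leaf marker genes lay between 71405 and 73927 in salt shoots and between 71316 and 74648 in control shoots, against 23730 to 35045 in salt roots, all arrays normalized together. None of the 7 leaf markers was a DEG by limma, and none had an unadjusted p below 0.05 or was called by the methods' t-test. Among them, the Rubisco small-subunit gene RBCS1, averaged below 32 in shoots and roots alike. Of 24 root marker genes, 4 were down-regulated (NAAT1, OsPht1;8, HAK1 and OsPht1;1), and the summed intensity of the 24 lay between 8823 and 11548 in salt shoots and between 15822 and 18613 in control shoots, against 51305 to 54774 in salt roots. In control roots and control shoots, NAAT1 averaged 1684 and 3814, OsPht1;8 1174 and 912, and OsPht1;1 4970 and 4280. HAK1 averaged 5009 and 1459, so of these 4 genes only HAK1 set roots clearly apart. Whether less root material lowered the sum in salt shoots was not tested, nor was its part in the decreases given below. The lowest correlation of an array with another of its group was 0.98145 among salt arrays and 0.97589 among control arrays. The 3′ to 5′ intensity ratio of the GAPDH control, a sign of RNA quality, was 1.944, 1.749 and 2.132 in salt arrays. It was 1.189, 1.889 and 2.767 in control arrays, and these groups overlap. For the actin control the ratio was much higher, 8.688, 10.9 and 7.938 in salt and 10.88, 7.802 and 10.79 in control arrays. For EF1A it lay between 0.04185 and 0.1582 in the same arrays. These controls therefore give no single reading of RNA quality, and for each of them the groups overlap.

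LEA proteins and dehydrins stood out. Of 9 named genes, 6 were up-regulated and none was down-regulated, and their median log2 fold change was 3.34, against a median of 0.03 over all 17905 named genes, of which 2.05% were up-regulated and 2.97% down-regulated. RAB21, a dehydrin gene of the RAB16 family, reached 14866, 12744 and 10879 in salt arrays, against 66.5, 98.2 and 373 in control arrays. Its intensity averaged 12830 ± 1995 under salt and 179 ± 168 in the control (SD, n = 3 each), so that the salt arrays lay far above the control arrays although the control arrays differed several-fold among themselves. The increase was 6.20 on the log2 scale (SE 0.57, adjusted p = 1.51e-05 by limma), and a second probe set of the gene rose by 5.74.

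RAB16B, RAB16C and RAB16D, dehydrin genes of the same family, rose as well. RAB16B read 2997, 1757 and 1534 in salt arrays, against 19.2, 17.5 and 25.9 in control arrays, so that it was a strong signal under salt and below 32 in every control array (log2 fold change 5.27, SE 0.33, adjusted p = 9.29e-07 by limma). RAB16C averaged 1310 under salt and 146 in the control, and RAB16D 959 and 68. In the gene table these genes form a cluster in which RAB16D and RAB16C are direct neighbours, as are RAB16B and RAB21, with 2 genes between RAB16C and RAB16B. Because these copies resemble each other, part of the signal of a probe set could come from a relative. LEA19, a LEA protein gene, was at 9134, 7844 and 8506 in salt arrays, against 151, 220 and 864 in control arrays (log2 fold change 4.62, SE 0.43, adjusted p = 1.63e-05). PM1, the gene of a small membrane protein induced by ABA, gave 2181, 1115 and 1089 under salt and 17.3, 19.2 and 35.5 in the control. The 3 list members that were not DEGs, Dhn1, rab25 and Emp1, had log2 fold changes of 0.48, 0.09 and 0.19.

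**Figure D2:**
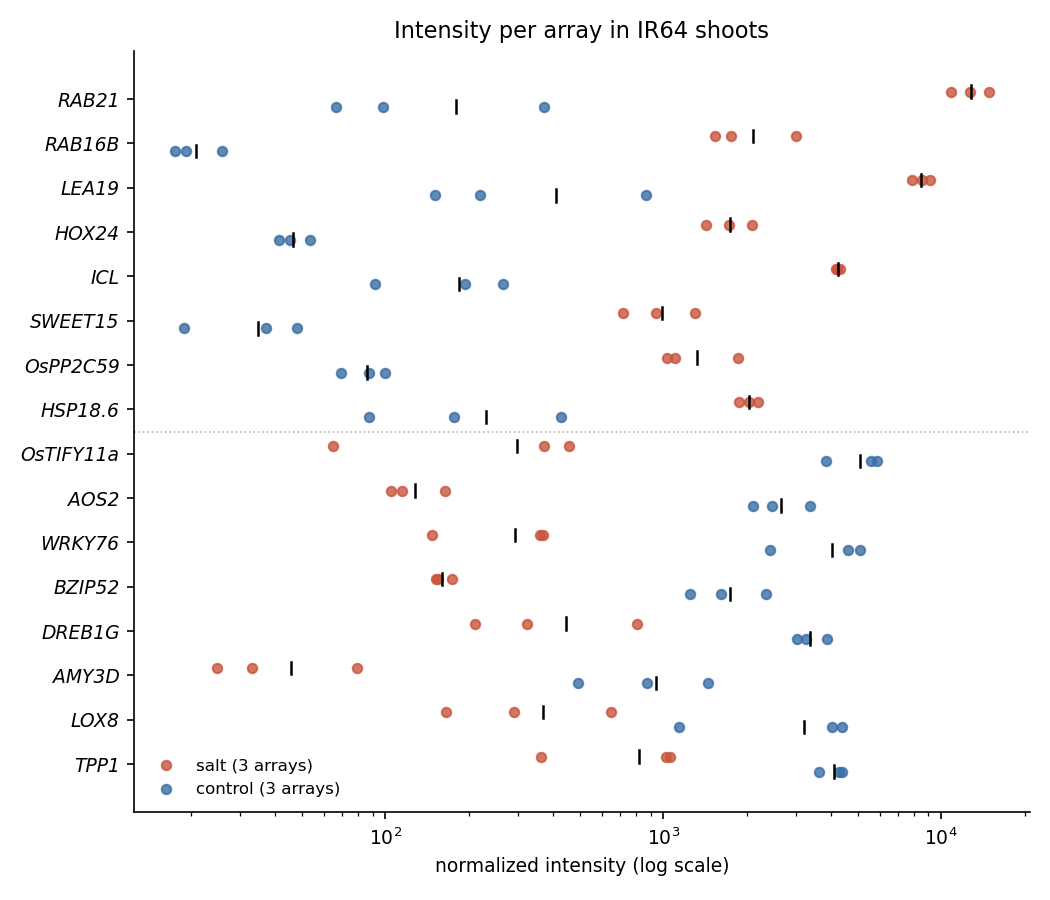
Normalized intensity of 16 genes in the 3 salt and 3 control arrays of IR64 shoots, on a log axis, with a black tick at each mean. The salt points lie above the control points for the 8 genes over the dotted line, from RAB21 to HSP18.6, and below them for the other 8.

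A few ABA signalling genes moved, in both directions. Of 11 genes of ABA receptors and SnRK2 kinases, 1 (9.1%) was up-regulated and 1 (9.1%) down-regulated, and the median log2 fold change was 0.08. SAPK1, a SnRK2 kinase gene, was up-regulated at 2166, 1713 and 1818 in salt arrays, against 482, 818 and 693 in control arrays (log2 fold change 1.50, SE 0.19), whereas OsSAPK2, another kinase of this family, was down-regulated by 1.39 with overlapping arrays, 2278, 1310 and 1454 under salt and 5515, 2149 and 6780 in the control. Of 56 protein phosphatase 2C genes, 3 were up-regulated and 2 down-regulated, which is 5.4% and 3.6% of the list. Over all named genes these shares were 2.05% and 2.97%, so the down-regulated share was near that of all genes. OsPP2C59 was at 1850, 1030 and 1101 under salt and at 87.6, 69.5 and 100 in the control (log2 fold change 3.49, SE 0.36, adjusted p = 3.69e-05). PP2C68 and PP2C51 rose by 2.45 and 2.36 on the log2 scale, and OsPP2C61 and OsPP2C35 fell by 1.60 and 1.54. Os06g0698300, annotated by the study as a protein phosphatase 2C, lies outside this list because its probe set has no single gene name. It rose by 3.37 (SE 0.30, adjusted p = 1.31e-05 by limma). ABA8OX1, the gene of an ABA 8′-hydroxylase that breaks ABA down, was lower in every salt array, at 3928, 843 and 1724, against 7892, 7216 and 8037 in the control (log2 fold change -2.08, SE 0.36, adjusted p = 0.00222). The other named genes of ABA synthesis and breakdown, ABA8OX2 and OsABA1, were not DEGs (log2 fold changes 0.23 and -0.07). An annotated Viviparous-14 gene (Os07g0154100), a name used for enzymes of ABA synthesis, rose by 1.51 (SE 0.40, adjusted p = 0.0285).

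Several families of transcription factors had more decreases than increases, each on few DEGs. Over all named genes decreases also outnumbered increases, with 2.97% down-regulated and 2.05% up-regulated. Down-regulated were 2 of 13 AP2/ERF and DREB genes, 2 of 10 MYB genes and 2 of 8 NAC genes, and none was up-regulated. The median log2 fold changes of these lists were -0.11, 0.04 and -0.16. WRKY76, known in rice as a repressor of defence genes, was measured at 368, 147 and 361 in salt arrays, against 4629, 2426 and 5125 in control arrays (log2 fold change -3.68, SE 0.35, adjusted p = 2.04e-05). WRKY62, its direct neighbour in the gene table, fell by 2.34 and WRKY71 by 1.29. WRKY76, WRKY62 and WRKY71 were the 3 DEGs among 6 named WRKY genes, whose median log2 fold change was -1.55. DREB1G and DREB1A, factors that bind the dehydration-responsive element, also fell, by 3.03 (SE 0.69, adjusted p = 0.0117) and 2.55 (SE 0.43, adjusted p = 0.00164). DREB1G was at 323, 210 and 802 under salt, against 3265, 3870 and 3022 in the control. BZIP52 was at 174, 155 and 152 under salt and 1619, 1245 and 2346 in the control, and was the single DEG among 19 bZIP genes. MYB2 and MYB4 fell by 2.36 and 1.72, while among 25 HD-Zip genes Hox13 fell by 1.12 and HOX24 rose by 4.48 (SE 0.25, adjusted p = 3.53e-07) to 2082, 1430 and 1721 under salt, against 45.3, 41.3 and 53.4 in the control.

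Genes of jasmonate synthesis and signalling fell more often than they rose. Of 39 named genes, 6 (15.4%) were down-regulated and 1 (2.6%) up-regulated, and their median log2 fold change was -0.46. OsTIFY11a, a jasmonate ZIM-domain repressor gene, was at 371, 65.1 and 459 in salt arrays, against 5855, 3837 and 5589 in control arrays (log2 fold change -4.23, SE 0.55, adjusted p = 0.000257). AOS2, an allene oxide synthase, was at 164, 105 and 115 under salt, against 3378, 2112 and 2462 in the control (log2 fold change -4.06, SE 0.18, adjusted p = 4.96e-08). AOS1 fell by 2.17, and the lipoxygenase genes LOX8 and LOX9, neighbours in the gene table, by 2.98 and 1.84. AOS3 was the exception, with 456, 363 and 318 under salt and 30.2, 102 and 62.1 in the control (log2 fold change 2.14, SE 0.39, adjusted p = 0.00288). Without control replicate 2, in which LOX8 read 1143 while the other control arrays read 4060 and 4389, 11 genes of this list were down-regulated.

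Of 49 named genes of heat-shock proteins and heat stress factors, 10 (20.4%) were up-regulated and 3 (6.1%), all of them factors, were down-regulated. The other members were not DEGs, and the median of the list was 0.23. HSP18.6, a small heat-shock protein gene, was at 2188, 1870 and 2037 under salt, against 87.3, 429 and 177 in the control (log2 fold change 3.19, SE 0.51, adjusted p = 0.00115). HSP17.9A rose by 2.03, and HSP17.4 and HSP18.1, neighbours in the gene table, were also DEGs. The factor genes HSF05, HSF01 and HSF2 rose, by 2.30, 2.24 and 1.62, whereas HSF10, HSF07 and HSF09 fell by 2.24, 2.10 and 1.63, the last with overlapping arrays. CLPB1, the gene of a disaggregating chaperone, rose by 1.42.

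Genes of calcium-regulated kinases and sensors fell in 11 of 78 cases (14.1%) and rose in 1. The calcium-dependent protein kinase CPK4 was at 2506, 1047 and 1636 in salt arrays, against 7499, 4624 and 7412 in control arrays (log2 fold change -1.95, SE 0.25, adjusted p = 0.000201). CPK1 fell by 1.77, and the calmodulin-like CML5 and CML27 by 1.91 and 1.84, while CML8 rose by 1.46. Cytochrome P450 genes were down-regulated in 7 of 29 cases (24.1%) and up-regulated in 2 (6.9%). The decreases included AOS2, AOS1, ABA8OX1 and CYP71Z7 (log2 fold change -2.83, SE 0.26), and the increases were AOS3 (2.14) and CYP71P1 (1.35, SE 0.25). Phenylpropanoid and lignin genes were down-regulated in 4 of 29 cases (13.8%) and up-regulated in none. 4CL5, a 4-coumarate:CoA ligase, fell by 2.62, CAD6, a cinnamyl alcohol dehydrogenase, by 1.90, and PAL06, a phenylalanine ammonia-lyase, by 1.61.

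Defence-related proteins gave no single direction. Of 15 named pathogenesis-related genes, 3 chitinase genes (20.0%) rose and 2 genes (13.3%) fell. The chitinase gene OsChia1a was at 1911, 2473 and 1777 under salt, against 219, 521 and 289 in the control (log2 fold change 2.54, SE 0.33, adjusted p = 0.000254), and Cht4 and Cht3 rose by 2.44 and 1.09. Cht6, another chitinase gene, fell by 2.90 and PBZ1 by 1.10. Glutathione transferase genes, in contrast, rose in 3 of 6 cases and fell in none. GST1 was at 1325, 616 and 1029 under salt, against 157, 109 and 239 in the control, and GSTU6 and GSTF1 rose by 1.53 and 1.42.

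Sugar and storage genes changed singly. Of 19 sugar transporter genes, 1 was up-regulated and 1 down-regulated (5.3% each). Of 40 starch and sucrose genes, 2 were up-regulated and 2 down-regulated (5.0% each), against 2.05% and 2.97% of all named genes. SWEET15, a sugar exporter of the SWEET family, was at 1304, 938 and 718 under salt, against 37.3, 48.0 and 18.9 in the control (log2 fold change 3.92, SE 0.36, adjusted p = 1.48e-05), whereas SUT4, a sucrose transporter, fell by 1.14 with overlapping arrays. AMY3D, an alpha-amylase, was at 79.1, 24.9 and 33.2 under salt, against 877, 494 and 1445 in the control (log2 fold change -3.58, SE 0.57). TPP1, a trehalose-6-phosphate phosphatase, fell by 2.42, as the single DEG among 8 trehalose genes, and SSI, a starch synthase, rose by 1.59. Among the same starch and sucrose genes, HXK4 rose by 1.54 and HXK7 fell by 1.25. Of 13 genes of proline and amino acid metabolism, 2 were called as up-regulated on their brightest probe set, OAT and P5CS2, and none as down-regulated. The ornithine aminotransferase OAT was at 3657, 3057 and 3167 under salt, against 1084, 1117 and 1276 in the control. P5CS2, which makes the precursor of proline, rose by 1.63 (SE 0.26) on its brightest probe set but fell by 1.98 (SE 0.40, adjusted p = 0.00584) on another, so its direction was not settled. A gene annotated as proline dehydrogenase, which starts proline breakdown, fell by 3.03 (SE 0.59, adjusted p = 0.00448).

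Metal and phosphate transport genes fell in a few cases. Of 53 genes of iron and metal homeostasis, 4 (7.5%) were down-regulated and none up-regulated. NAAT1, an aminotransferase of phytosiderophore synthesis, was at 1055, 1380 and 1461 in salt arrays, against 3799, 3848 and 3794 in control arrays (log2 fold change -1.54, SE 0.18, adjusted p = 9.54e-05). The zinc transporter gene ZIP8 fell by 1.35, and NAS3, a nicotianamine synthase, and YSL13, a transporter of the yellow stripe-like family, by 1.01 each. The phosphate transporters OsPht1;8 and OsPht1;1 fell by 1.41 and 1.02. Of 25 aquaporin genes, 1 was a DEG, the tonoplast aquaporin TIP3, which was at 278, 256 and 163 under salt, against 47.4, 38.0 and 29.8 in the control (log2 fold change 1.89, SE 0.28).

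Single members of further lists changed. LTP-2, a lipid transfer protein gene, was at 1724, 2026 and 1400 under salt, against 134, 127 and 94.2 in the control (log2 fold change 3.54, SE 0.30, adjusted p = 8.48e-06). GLO3, a glycolate oxidase gene of the photorespiration list, was at 1354, 1700 and 1546 under salt, against 331, 333 and 282 in the control (log2 fold change 2.17, SE 0.27). Both genes separated the groups without overlap, whereas the other 4 genes of each list were not DEGs. GLO3 was brighter in control roots of IR64, at 3756, 3129 and 2672, and fell by 1.02 in roots under salt. EXPB2, an expansin that loosens cell walls, fell by 1.36 and CSLD2, a cellulose synthase-like gene, by 1.28. The auxin-responsive gene SAUR39 and the auxin response factor gene ARF16 rose by 1.35 and 1.14, SAUR39 with overlapping arrays (1129, 1431 and 710 under salt, against 251, 728 and 320 in the control), and they were the 2 DEGs among 59 auxin genes.

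Some groups held few or no DEGs. None of 14 genes of light harvesting and chlorophyll synthesis and none of 12 of Rubisco and the Calvin cycle was a DEG by limma, with 2 genes of each list at an unadjusted p below 0.05 and none called by the methods' t-test. Median log2 fold changes in these lists were -0.01 and 0.05. Of 61 cell cycle genes none was a DEG either, but 25 had an unadjusted p below 0.05, and the median was -0.04. Over all 17905 named genes, 6395 had an unadjusted p below 0.05. A probe set named CDKE-1, which the study annotates as a hypothetical protein, was down-regulated by 3.01 (SE 0.45). Among 30 genes of sodium, potassium and proton transport 1 was a DEG, the potassium transporter HAK1, which fell by 1.07 with overlapping arrays. HKT1;5, a sodium transporter of the shoot and root vasculature, was at 41.2, 57.7 and 50.6 under salt and 43.6, 58.7 and 53.2 in the control, and its difference was not detectable at this signal. All 6 genes of chlorophyll breakdown and senescence had positive log2 fold changes of 0.12 to 0.77, and none reached 2-fold.

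**Figure D3:**
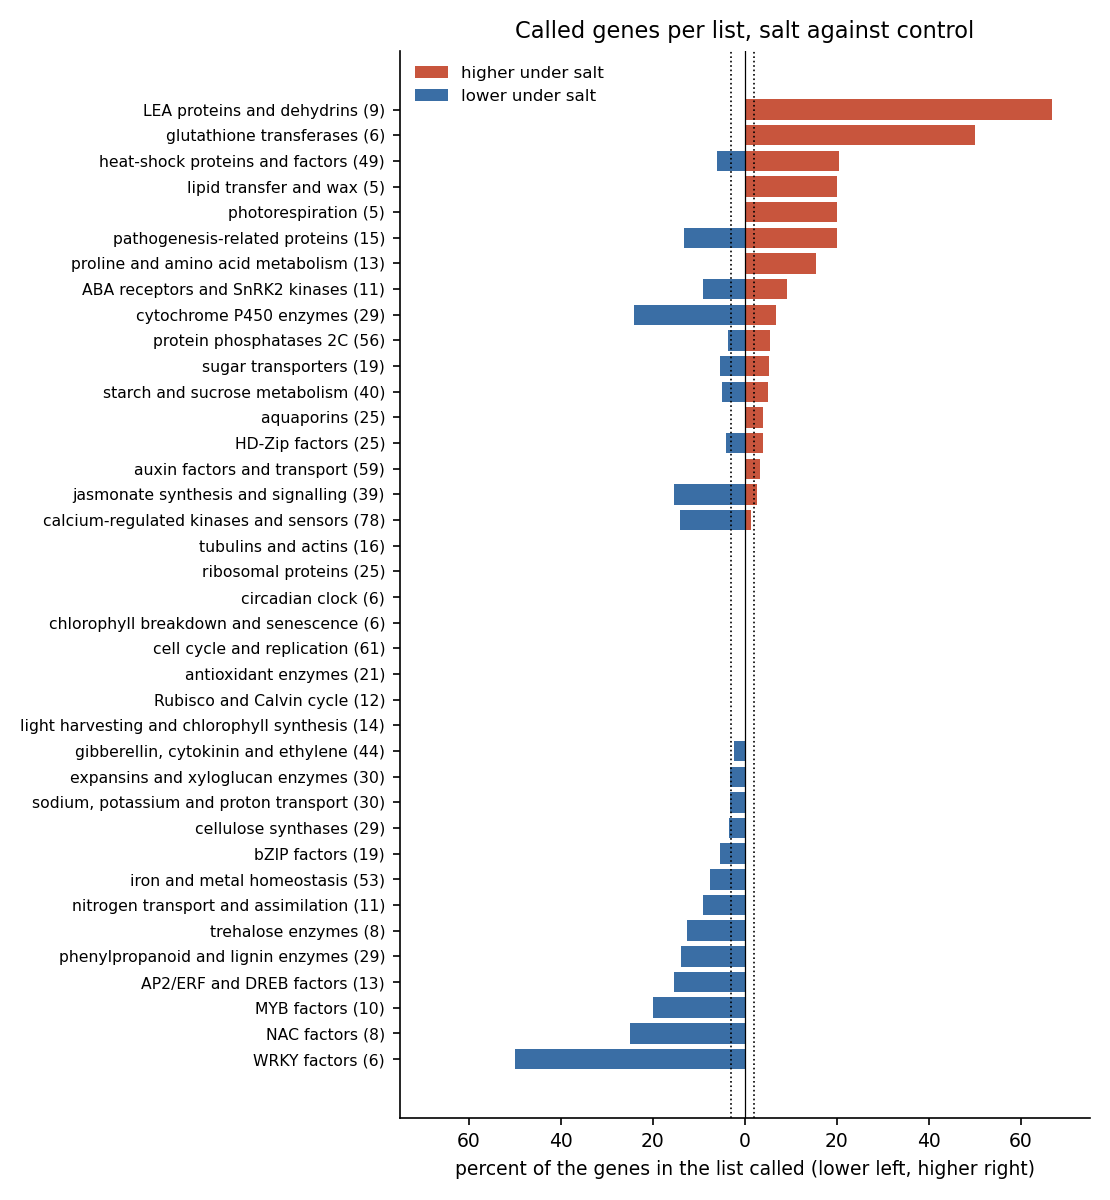
Percent of the genes of each list (number of genes in parentheses) that were up-regulated, to the right, or down-regulated, to the left, in IR64 shoots under salt, without the marker lists. Dotted lines mark the shares over all named genes, 2.05% and 2.97%, and LEA proteins and dehydrins reach the highest up-regulated share, 66.7%.

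Among genes without a descriptive symbol, 8 of the 15 largest increases carried only a locus identifier. LOC4336815 rose by 5.08 and LOC4333791 by 4.96 on the log2 scale, at 3707, 3276 and 3381 and at 2249, 4362 and 3325 under salt. ICL, the isocitrate lyase of the glyoxylate cycle, was at 4312, 4190 and 4222 under salt, against 91.5, 266 and 193 in the control (log2 fold change 4.40, SE 0.38, adjusted p = 9.61e-06). Among the study's shared salt DEGs, which were selected on these samples and so are no independent evidence, 65 of 102 matched probe sets were up-regulated here, 34 were down-regulated and 3 were not called. They included the up-regulated raffinose synthase family gene LOC4342703 (log2 fold change 2.22, SE 0.25), the remorin LOC4331206 (1.73, SE 0.17), the sugar transporter LOC4348440 (3.11, SE 0.25) and the down-regulated COPT1, a copper transporter (-1.51, SE 0.35).

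The response of IR64 shoots differed from that of PL177 shoots for 0 probe sets (0%) by limma. Unadjusted, 1984 of the 57258 probe sets tested had a p below 0.05 for this difference, and the smallest adjusted p was 0.128. This is fewer than such a limit lets through where nothing differs. The study grew both genotypes in the same box. With same-numbered arrays of a treatment as a block, an alternative chosen after seeing the data, the count was again 0. With this block 3174 probe sets had an unadjusted p below 0.05, slightly more than where nothing differs, and the smallest adjusted p was 0.181. Of the 554 DEGs up-regulated in IR64, 553 changed in the same direction in PL177 and 471 by more than 2-fold. Of the 793 down-regulated, these numbers were 792 and 625. The matching shares over all probe sets are not given here. Because the probe sets were chosen for their change in IR64, a larger change in IR64 is favoured, and it was larger in 364 of the 554 and in 610 of the 793. For the 10 largest increases and 10 largest decreases, IR64 minus PL177 differences lay between -1.41 and 1.31, and the bounds of their 95% intervals between -3.69 and 3.06, which leaves room for differences of several-fold. With the block the bounds were -3.38 and 2.17. For AOS2, PL177 arrays read 168, 123 and 99.1 under salt, against 2567, 2526 and 2456 in the control, and the IR64 minus PL177 difference was -0.06 (95% interval -0.62 to 0.49). For LEA19, PL177 arrays read 6613, 8700 and 9999 under salt and 515, 993 and 1022 in the control, so that its control levels lay above 2 of the 3 IR64 control arrays and the difference was 1.31 (95% interval 0.01 to 2.60, adjusted p = 1 by limma, and 0.44 to 2.17, adjusted p = 0.826, with the block).

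**Figure D4:**
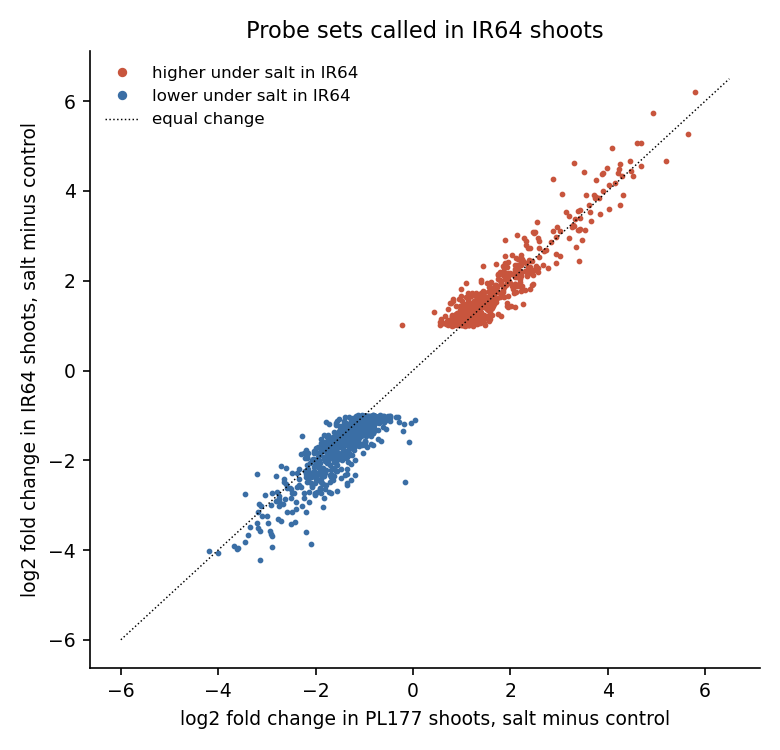
Log2 fold change, salt minus control, in IR64 shoots (vertical axis) against PL177 shoots (horizontal axis) for the 1347 DEGs of IR64 shoots. The points follow the dotted line of equal change, with 553 of 554 up-regulated and 792 of 793 down-regulated DEGs on the same side of 0 in PL177.

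Set against IR64 roots, the leading changes of shoots were mostly larger. All 36 arrays were normalized together here. The organ difference passed the test for 747 probe sets (1.3%) with a higher change in shoots and for 929 (1.62%) with a lower change. Of the 10 largest increases and 10 largest decreases in shoots, 17 differed between the organs, though these were chosen by their size in shoots. AOS2 fell by 3.92 in shoots and by 0.63 in roots, and WRKY76 by 3.56 and 0.08. In control roots AOS2 averaged 100 and WRKY76 204. In control shoots they averaged 2651 and 4060, but these 2 shoot means come from the 18 shoot arrays normalized alone, so the scales differ. A gene that is dim in control roots can fall only a little there on this scale. The dehydrin RAB21 rose by 6.04 in shoots and by 2.81 in roots, and LEA19 by 4.48 and 2.51, and both had higher values in all salt arrays of both organs. RAB21 read 635, 464 and 402 in salt roots, against 65.5, 26.6 and 41.1 in control roots. For HOX24 and PM1, the difference between organs had adjusted p = 0.232 and 0.0754, by limma.

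**Figure D5:**
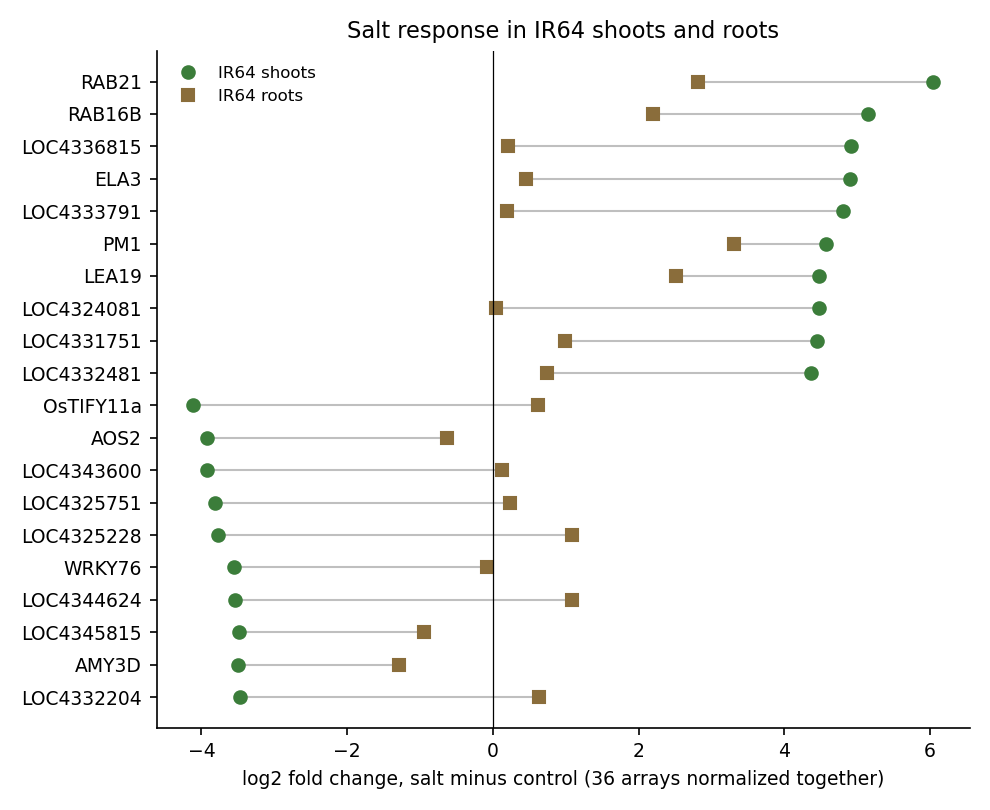
Log2 fold change, salt minus control, in IR64 shoots (circles) and IR64 roots (squares) for the 10 largest increases and 10 largest decreases of shoots. In roots 13 of the 20 genes changed by less than 1 on the log2 scale. The largest root values were those of PM1 (3.31), RAB21 (2.81), LEA19 (2.51) and RAB16B (2.20). Several genes that fell in shoots were already dim in control roots.

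Under salt+ABA, the mean levels of RAB21, HOX24, WRKY76 and AOS2 lay between those under salt and those in the control. RAB21 averaged 5915 ± 2024 under salt+ABA, 12830 ± 1995 under salt and 179 ± 168 in the control (SD, n = 3 each). HOX24 averaged 511, 1744 and 46.7 in these groups, and WRKY76 2346, 292 and 4060. AOS2 averaged 210 ± 23.1 under salt+ABA, against 2651 ± 654 in the control (SD, n = 3 each), close to the 105 to 164 of the salt arrays. Of the DEGs up-regulated by salt, 534 of 554 had lower values under salt+ABA than under salt, and of those down-regulated 634 of 793 had higher values, with median differences of -0.93 and 0.50 on the log2 scale. Both of these comparisons use the same salt arrays that chose the DEGs, so they are descriptions without a test. The matching shares over all probe sets are not given here, so the counts are not read as particular to these DEGs.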

How the data were processed

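The values deposited by the authors were linear intensities of 57381 probe sets per array. How they were summarised and normalized is not stated by the labels or the study's methods. The 123 array controls were left out. Quantile normalization was run over the 18 shoot arrays, followed by log2(intensity + 32), a scale that shrinks the changes of dim genes. One model with 6 groups was fitted with limma 3.58.1 in R 4.3.3 (lmFit, eBayes) and all 36 arrays were used for the organ difference. Tables and figures were made with Python 3.11.15, pandas 2.3.3 and matplotlib 3.10.9. On simulated data the fit was checked with known changes, but dim probe sets were only raised there, so their falls were not checked. The number of arrays limits precision.

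Names were taken from the platform's gene annotation and updated through RefSeq's gene table (assembly ASM3414082v1), so that 22436 probe sets had 1 gene, 95 several and 34727 none. A gene was represented by its brightest probe set. Named are, among probe sets with 1 gene name, the 15 largest increases and decreases with non-overlapping arrays, up to 4 leading members per list and direction, and genes that the study's supplement lists. Genes known only by an identifier are in no list. Alternatives were other scalings, added values, filters and fits, a replicate block, the methods' t-test and leaving out each array. The members and lists were chosen with earlier results of these data known. Lists with fewer than 4 genes, 1 list here (ABA synthesis and breakdown), were dropped, and its member ABA8OX1 was named after its values were seen, like the genes of the closing section and HKT1;5. Promoter motifs and sequences were not analysed here. No columns were left unmapped.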

Additional observations from a re-analysis of the deposited data

Results flagged for a closer look

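For 17 of the 20 genes with the largest changes in IR64 shoots, the salt response differed between IR64 shoots and IR64 roots by limma's test of the difference itself. These genes were chosen for their change in shoots, which favours a difference. The increase was larger in shoots by 3.23 on the log2 scale for RAB21, 2.95 for RAB16B, 4.71 for LOC4336815, 4.46 for ELA3 and 4.61 for LOC4333791. It was larger by 1.98 for LEA19, 4.43 for LOC4324081, 3.45 for LOC4331751 and 3.63 for LOC4332481. The shoot minus root difference was -4.73 for OsTIFY11a, -3.28 for AOS2, -4.05 for LOC4343600 and -4.05 for LOC4325751. It was -4.86 for LOC4325228, -3.47 for WRKY76, -4.63 for LOC4344624 and -4.12 for LOC4332204. The adjusted p lay between 4.93e-10 for AOS2 and 0.0122 for LOC4343600. The genes that fell in shoots averaged between 58.5 (LOC4332204) and 578 (LOC4343600) in control roots. The dimmest of them could fall only a little in roots on this scale. Their log2 changes in roots were 1.09 for LOC4344624, 1.08 for LOC4325228, 0.64 for LOC4332204 and 0.62 for OsTIFY11a. For LOC4325751, LOC4343600, WRKY76 and AOS2 they were 0.24, 0.12, -0.08 and -0.63. No explanation was tested.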

How the results depend on the processing

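The count of 1347 DEGs in IR64 shoots was 863 with a value 4 times as large added before log2, 678 when only the 6 arrays were fitted, 5546 without the 2-fold threshold and 40 by the methods' t-test after Benjamini-Hochberg adjustment. Leaving out 1 array gave 1056 to 2034, the highest without control replicate 2 of IR64 shoots, where 520 of the up-regulated and 740 of the down-regulated DEGs were called again. For the difference between IR64 and PL177, leaving out 1 array gave 0 to 3. The 1676 probe sets that differed between IR64 shoots and roots became 1049 with the larger added value, 873 with only the arrays compared and 5082 without the 2-fold threshold, and 1268 to 2329 without 1 array. Other planned settings stayed within 1.5 times. Of 185 called named probe sets, none changed direction under any of the 18 alternatives. Of these, 27 were no longer DEGs with the larger added value, 60 with only the 6 arrays and 177 under the adjusted t-test. Replicate numbers did not pair salt with control samples, whose same-numbered deviations correlated by -0.3455, 0.0433 and -0.188. For unlike numbers the correlations lay between -0.4674 and 0.6536, the highest for salt replicate 1 with control replicate 3. The replicate block gave 1476 DEGs in IR64 shoots, 0 for the genotype difference and 1768 for the organ difference. Within a treatment, same-numbered shoot arrays of IR64 and PL177 correlated by 0.704, 0.728 and 0.739 in controls and by 0.423, 0.345 and 0.0685 under salt, each best with its own number, a hint from the data that they share a box, and the block within treatment left the genotype difference at 0. A change of scaling moved the median of all probe sets by less than 0.1. The calls per gene list without control replicate 2 were added after seeing the data.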

Other observations

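Genes of diterpenoid synthesis, chosen after their values were seen, held several decreases. Diterpenoid phytoalexins of rice, such as momilactones and phytocassanes, are defence compounds made by cyclases and cytochrome P450 enzymes. Of 20 named genes, 6 were down-regulated and 0 up-regulated by limma, with a median log2 fold change of -0.37, against 2.97% and 2.05% of all named genes. The other 14 were not DEGs, and 4 of them had positive values, from 0.11 for CYP701A19 to 0.31 for KS6. CYC1, a cyclase of the momilactone branch, was at 27.7, 19.0 and 29.2 in salt arrays, against 253, 136 and 236 in control arrays (log2 fold change -2.04, SE 0.21, adjusted p = 3.46e-05). OsMAS, momilactone A synthase, fell by 1.31, and CYP99A3 by 1.22. CYC1 and CYP99A3 are neighbours in the gene table, and OsMAS lies 2 genes further on. CYC2, a cyclase of the phytocassane branch, fell by 1.64 next to its neighbour CYP71Z7, which fell by 2.83, and CYP701A9 fell by 1.85.

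The malate synthase gene MS and the alternative oxidase gene AOX1, also chosen after their values were seen, rose. MS was at 6652, 6037 and 5498 under salt, against 1445, 2151 and 2728 in the control (log2 fold change 1.55, SE 0.33, adjusted p = 0.00778). Malate synthase and isocitrate lyase, the product of ICL, are the enzymes particular to the glyoxylate cycle. AOX1, the mitochondrial alternative oxidase, rose by 1.17 (SE 0.25, adjusted p = 0.00764).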
